A study of Mus musculus with 12 samples.

Results

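The 10 genes described here, Atf5, Atf3, Ddit3, Trib3, Chac1, Sesn2, Asns, Cebpg, Cebpb and Nupr1, are known as direct targets of the transcription factor ATF4. They were chosen by gene symbol, with earlier results of these data known. All 10 were found among the 55367 gene symbols of the deposited data. RNA was sequenced from G1E-ER4 cells, mouse erythroid progenitors without a working Gata1 gene of their own, in which a fusion of GATA1 to an estrogen receptor domain lets estradiol start red cell maturation. Polyadenylated RNA was measured in 12 libraries, 3 biological replicates in each of 4 groups, all of them given 100 nM β-estradiol and harvested at 24 h. DTPA cells also received 50 µM DTPA, a metal chelator labelled as giving low zinc. DFO cells received 50 µM DFO, an iron chelator labelled as giving low iron. SA cells received 0.2 mM SA, used to block the heme synthesis enzyme ALAD and labelled as giving low protoporphyrin IX. Control cells received estradiol alone. The treatment protocol names DFO for the ALAD group where the sample titles and treatment tags name SA, and the titles were followed. All groups come from 1 cell line, and p-values measure the spread between these replicates. The 3 treatments were set against the same 3 Control libraries.

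In the integrated stress response, kinases such as the heme-regulated HRI (gene Eif2ak1) phosphorylate the translation factor eIF2α, general protein synthesis slows, and the mRNA of ATF4 is translated more. HRI is the main such kinase of erythroid precursors, where it is held inactive by heme and slows globin synthesis when heme is short. ATF4 then binds DNA together with C/EBP partners and raises transcription of genes for amino acid synthesis, redox control and further stress factors. Much of the control of ATF4 itself lies in translation, which RNA levels do not show.

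ATF4 and its C/EBP partners bind composite C/EBP-ATF response elements, and the core of that element, TGATGNAA, was searched on both strands of the RefSeq promoters (build GRCm38.p6), taken as 250 bases before to 50 bases after each annotated start. The 10 genes had 11 such promoters, since Atf5 has 2 annotated starts. The core was found in the promoters of 5 of the 10 genes, Asns, Nupr1, Trib3, Atf3 and Chac1, and in none of the other 5. Among all 32851 RefSeq promoters of this length, 3.97% held it, as did 208 of the 9903 promoters of genes tested here. A match is a description of these letters and not evidence of binding. The cAMP response element TGACGTCA was in no promoter of the 10 genes, against 1.79% of all promoters, and the endoplasmic reticulum stress response element, searched on both strands as CCAAT and CCACG with 9 bases of any kind between them, was in none, against 0.119% of all promoters. With no match of these 2 motifs, none overlapped the ATF4 core.

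The 5 promoters that hold the core are printed 5′ to 3′ on the strand of the gene, because they let the position of the element be read beside the expression values; capitals mark the match. They lie at chr6:7693160-7693459 (minus strand) for Asns, chr7:126625421-126625720 (minus strand) for Nupr1, chr2:152344011-152344310 (minus strand) for Trib3, chr1:191183284-191183583 (minus strand) for Atf3 and chr2:119350992-119351291 (plus strand) for Chac1.
Asns: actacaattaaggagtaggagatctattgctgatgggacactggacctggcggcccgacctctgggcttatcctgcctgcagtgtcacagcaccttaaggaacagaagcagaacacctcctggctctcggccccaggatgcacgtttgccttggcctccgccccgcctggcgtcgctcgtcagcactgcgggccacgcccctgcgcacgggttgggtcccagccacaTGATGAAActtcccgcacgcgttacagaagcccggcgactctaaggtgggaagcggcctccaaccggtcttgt
Nupr1: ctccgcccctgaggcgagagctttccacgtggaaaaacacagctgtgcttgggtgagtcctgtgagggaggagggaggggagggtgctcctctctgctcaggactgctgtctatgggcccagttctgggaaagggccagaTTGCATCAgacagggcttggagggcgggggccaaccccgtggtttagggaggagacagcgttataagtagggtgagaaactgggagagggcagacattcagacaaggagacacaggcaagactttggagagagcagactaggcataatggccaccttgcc
Trib3: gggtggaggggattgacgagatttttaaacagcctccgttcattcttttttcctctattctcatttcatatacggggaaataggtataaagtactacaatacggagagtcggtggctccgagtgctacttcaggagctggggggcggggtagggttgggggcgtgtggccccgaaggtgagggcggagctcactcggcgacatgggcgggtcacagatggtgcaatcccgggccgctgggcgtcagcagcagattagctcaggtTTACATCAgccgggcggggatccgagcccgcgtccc
Atf3: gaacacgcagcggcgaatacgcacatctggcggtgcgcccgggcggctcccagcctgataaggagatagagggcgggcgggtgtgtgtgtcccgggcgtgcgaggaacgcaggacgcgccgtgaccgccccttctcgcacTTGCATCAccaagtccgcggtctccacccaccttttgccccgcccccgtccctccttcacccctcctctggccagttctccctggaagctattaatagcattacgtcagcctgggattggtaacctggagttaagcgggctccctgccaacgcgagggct
Chac1: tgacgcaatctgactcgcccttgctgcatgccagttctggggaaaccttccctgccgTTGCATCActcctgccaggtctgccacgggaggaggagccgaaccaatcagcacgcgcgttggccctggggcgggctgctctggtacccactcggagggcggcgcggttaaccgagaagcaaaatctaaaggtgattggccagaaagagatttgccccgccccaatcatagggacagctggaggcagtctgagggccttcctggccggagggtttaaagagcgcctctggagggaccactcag
In Asns the match lies on the gene's own strand at positions −23 to −16 from the start. In Nupr1 and in Atf3 it lies on the opposite strand at −110 to −103. In Chac1 it lies on the opposite strand at −193 to −186, and in Trib3 on the opposite strand at 15 to 22, inside the transcribed part. The 2 genes with no usable RNA level, Atf3 and Chac1, hold the core as Asns, Nupr1 and Trib3 do.

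Values are TPM, transcript abundances scaled to the same total in every library, as the authors deposited them. A gene was tested where at least 3 of the 12 libraries reached 1 TPM, which 11917 genes did, 8 of the 10 among them. These 8 were at or above 1 TPM in all 12 libraries. Chac1, which encodes an enzyme that breaks down glutathione, was listed at 0 TPM in all 12 libraries. A count of 0 allows up to 3 reads, which for Chac1 would be between 0.226 and 0.293 TPM in a library. Atf3, a bZIP repressor of the stress response, had 2 reads in all, 1 in DTPA replicate 2 (0.0574 TPM) and 1 in DFO replicate 2 (0.0743 TPM), and was listed at 0 in the other 10 libraries. Neither gene was tested, and a change below these limits was not detectable at this depth. Reads were recovered as TPM times exon length, divided by the value that a single read takes in that library. Over the 53170 rows with a unique symbol and a known length, they summed to 19857417 to 24326305 reads for a library. A single read on a transcript of 1 kb equals 0.124 to 0.160 TPM. These limits cover counting error only.

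The 8 measured genes spanned a wide range of levels. In Control cells Asns (423 TPM), Ddit3 (332 TPM) and Atf5 (250.0 TPM) stood above 97.0%, 95.9% and 94.4% of all genes tested. Sesn2 was at 114 TPM and Cebpg at 31.0 TPM. Nupr1 at 17.7 TPM and Trib3 at 11.0 TPM lay in the middle of the genes tested, and Cebpb at 3.16 TPM stood above only 19.9% of them. The summed level of the 10 genes was 839 ± 6.67 TPM in DTPA cells, 1406 ± 14.7 TPM in DFO cells and 1843 ± 12.1 TPM in SA cells, against 1182 ± 2.30 TPM in Control cells (SD, n = 3 each). Ddit3, Asns and Atf5 together made up between 82.5% and 85.1% of that sum in each group, so the sum speaks mostly of these 3. In bulk RNA, fewer cells that express a gene and less of its RNA per cell cannot be told apart.

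**Figure D1:**
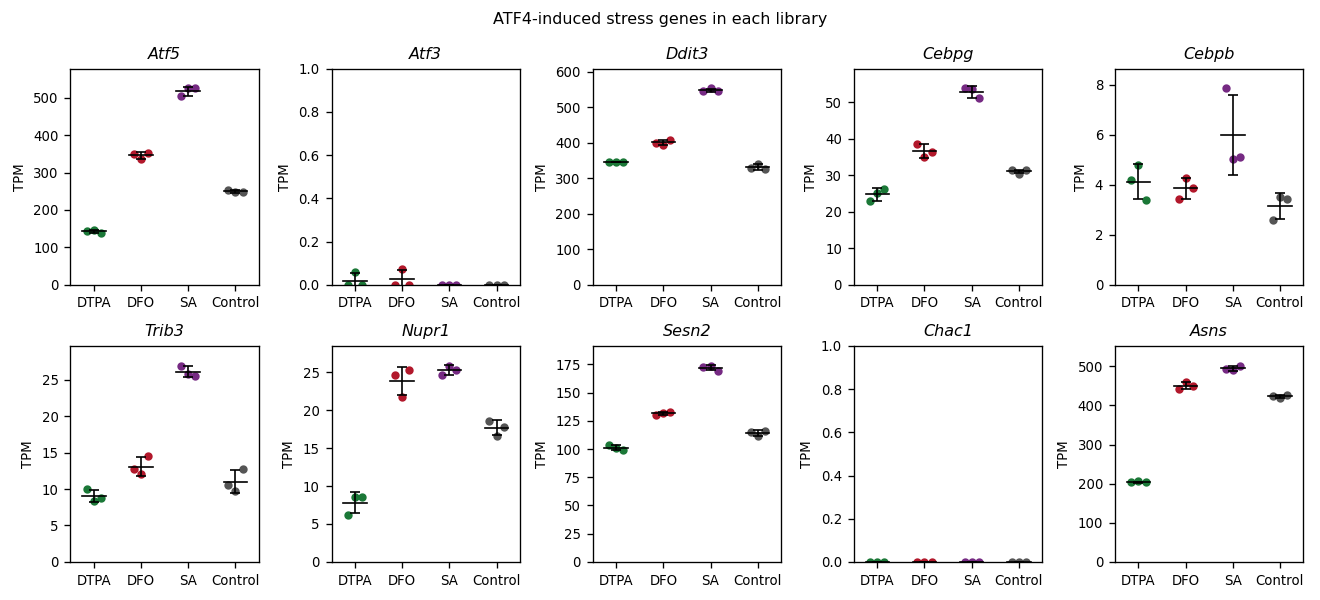
TPM of each of the 10 genes in every library (points), with the group mean and SD (bars, n = 3), for DTPA, DFO, SA and Control cells; each panel has its own scale from 0. All 8 measured genes were highest on average in SA cells, 6 of them were lowest in DTPA cells, and Atf3 and Chac1 lay at or next to 0 throughout.

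Under SA all 8 measured genes rose, from 1.17-fold for Asns to 2.37-fold for Trib3 by means. In DFO cells 6 of the 8 rose, from 1.06-fold for Asns to 1.38-fold for Atf5, and Trib3 and Cebpb did not pass the test. In DTPA cells 6 of the 8 fell, from 1.13-fold for Sesn2 to 2.26-fold for Nupr1, with Asns (2.07-fold) and Atf5 (1.75-fold) next to Nupr1, while Ddit3 was slightly higher and Cebpb did not pass the test. Tests were made with limma on log2(TPM + 1), and a gene was called where its p, adjusted over all 11917 genes tested, was under 0.05. Log2 fold changes are on that scale, which understates the change of low genes, Cebpb above all.

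The counts need the share of all genes called beside them. For SA against Control, 8 of 8 genes were higher, where 15.4% of all genes tested were called higher, 6.75% lower and 22.2% either way. The median log2 fold change of the 8 was 0.73, and that of all genes 0.05. For DFO against Control, 6 of 8 were higher and 0 lower, where 8.39% of all genes were called higher, 2.28% lower and 10.7% either way. The median of the 8 was 0.23, and that of all genes 0.05. For DTPA against Control, 1 of 8 was higher and 6 were lower, where 23.5% of all genes were called higher, 42.1% lower and 65.5% either way. The median of the 8 was −0.28, and that of all genes −0.11, so 6 falls among 8 genes lie closer to the background of that comparison than the rises under SA and DFO do to theirs.

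Every SA library lay above every Control library for all 8 genes, a separation found for 26.8% of all genes tested. Every DFO library lay above every Control library for 6 of the 8 (23.7% of all genes), with overlap for Trib3 and Cebpb. Every DTPA library lay below every Control library for 5 of the 8 (44.1% of all genes), above for Ddit3 (25.5% of all genes), and overlapped for Trib3 and Cebpb.

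The split between higher and lower depends on how libraries are scaled. With TPM as deposited, 2796 genes were higher and 5014 lower in DTPA against Control, and with median-of-ratios scaling 3842 were higher and 3858 lower. The same scaling gave 423 higher and 646 lower in DFO against Control, where TPM gave 1000 and 272, and 1124 higher and 1624 lower in SA against Control, where TPM gave 1838 and 804. It moved the median log2 fold change of all genes by 0.12 in DTPA against Control, by −0.05 in DFO against Control and by −0.05 in SA against Control. Under it all 8 genes remained higher in SA cells and 5 of 8 in DFO cells, and 4 of 8 remained lower in DTPA cells, namely Asns, Nupr1, Atf5 and Cebpg.

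**Figure D2:**
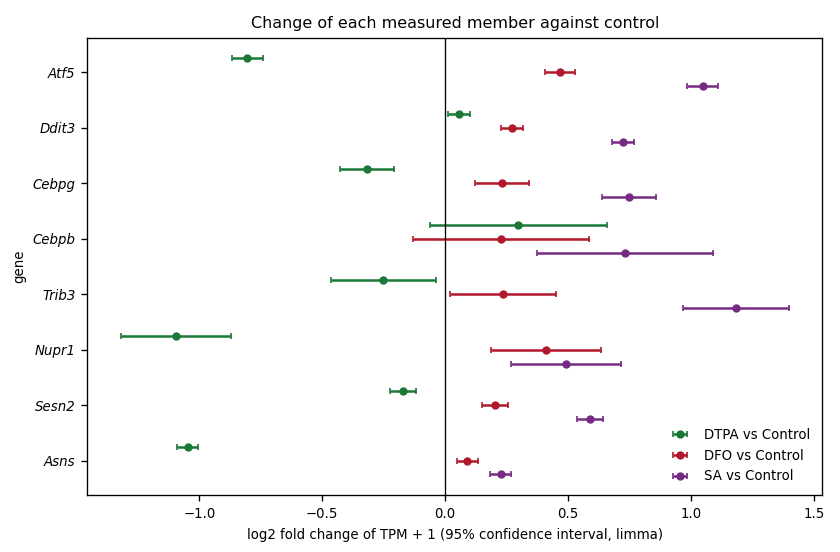
Log2 fold change of TPM + 1 against Control for the 8 measured genes, with 95% confidence intervals from limma, for DTPA (green), DFO (red) and SA (purple). SA lies right of 0 for all 8 genes and DFO for all but Cebpb, whose interval crosses 0, while DTPA lies left of 0 for all but Ddit3 and Cebpb.

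Gene positions are those of GENCODE M21 on the build mm10. Atf5 (chr7:44812256-44816658, minus strand) encodes a bZIP factor of the stress response and had the largest change of the 8 genes under DFO. Its levels were 145, 146 and 138 TPM in DTPA cells, 350.5, 335 and 353 TPM in DFO cells and 504, 525 and 525 TPM in SA cells, against 254, 249 and 247 TPM in Control cells. The 4 groups did not overlap, with DTPA lowest and SA highest. Against Control, the log2 fold change was −0.81 ± 0.03 for DTPA (SE; limma, adjusted p = 3.12e-10), 0.47 ± 0.03 for DFO (adjusted p = 1.09e-05) and 1.05 ± 0.03 for SA (adjusted p = 5.50e-09). In plain ratios of means, Atf5 was 1.75-fold lower with DTPA, 1.38-fold higher with DFO and 2.07-fold higher with SA. From DTPA to SA cells the means spanned 3.63-fold, the widest span of the 8 genes. Of its exon length, 4.11% is shared with Il4i1 and Nup62 on the opposite strand.

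Ddit3 (chr10:127290774-127296288, plus strand) encodes CHOP, a bZIP factor that forms dimers with C/EBP proteins and is tied to stress-induced cell death. It measured 345, 346 and 345 TPM in DTPA cells, 401, 394 and 408 TPM in DFO cells and 547, 553 and 545 TPM in SA cells, against 328, 341 and 327 TPM in Control cells. SA stood clear above DFO, and DFO above both DTPA and Control, which lay next to each other without overlap. Its log2 fold change was 0.06 ± 0.02 for DTPA (limma, adjusted p = 0.0289), 0.27 ± 0.02 for DFO (adjusted p = 2.44e-05) and 0.72 ± 0.02 for SA (adjusted p = 5.50e-09). It was the only one of the 8 genes called higher with DTPA, by 1.04-fold. Without Control replicate 1 or 3, or without any 1 DTPA library, that small rise no longer passed the test (adjusted p between 0.0580 and 0.107), whereas median-of-ratios scaling gave 0.19 ± 0.03 (adjusted p = 4.29e-05). There are 2 Ddit3 models in the annotation and 2 Ddit3 rows in the deposited values. The row used gave whole reads for the longer model (1713 bases of exon) in 12 of 12 libraries. The other row was listed at 0. Of the exon length of the longer model, 3.97% is shared with Mars on the opposite strand, and Mars is on the list of other ATF4 targets below.

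Cebpg (chr7:35046422-35056573, minus strand) encodes a C/EBP protein that pairs with ATF4. Its levels were 22.8, 25.3 and 26.1 TPM in DTPA cells, 38.7, 35.0 and 36.2 TPM in DFO cells and 53.8, 53.6 and 51.0 TPM in SA cells, against 31.3, 30.4 and 31.3 TPM in Control cells. No 2 groups overlapped, in the order DTPA, Control, DFO, SA from low to high. For Cebpg the log2 fold change was −0.32 ± 0.05 for DTPA (limma, adjusted p = 0.000156), 0.23 ± 0.05 for DFO (adjusted p = 0.0145) and 0.75 ± 0.05 for SA (adjusted p = 2.41e-06). The rise with DFO missed the threshold without Control replicate 2 (adjusted p = 0.0509) or without DFO replicate 1 (adjusted p = 0.0548).

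Cebpb (chr2:167688915-167690418, plus strand), which encodes a C/EBP factor of myeloid and stress programmes, was the lowest of the 8 and rested on 28 to 81 reads per library. It measured 4.20, 4.77 and 3.39 TPM in DTPA cells, 3.43, 4.26 and 3.87 TPM in DFO cells and 7.84, 5.03 and 5.08 TPM in SA cells, against 2.57, 3.49 and 3.42 TPM in Control cells. DTPA, DFO and Control overlapped, and SA lay above all of them, with SA replicate 1 well above the other 2 SA libraries. Cebpb rose with SA, with a log2 fold change of 0.73 ± 0.16 (limma, adjusted p = 0.00800). It did not pass the test with DTPA (0.30 ± 0.16, adjusted p = 0.130, 95% interval −0.06 to 0.66) or with DFO (0.23 ± 0.16, adjusted p = 0.432, 95% interval −0.13 to 0.59). Of its single exon, 20.7% is shared with Tmem189 on the opposite strand, and reads of both genes cannot be told apart there unless the counting used strand, which is not given in the sources used here.

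Trib3 (chr2:152337422-152344032, minus strand) encodes a pseudokinase that binds ATF4 and CHOP and restrains their activity. Its levels were 10.0, 8.37 and 8.73 TPM in DTPA cells, 12.7, 12.0 and 14.5 TPM in DFO cells and 26.9, 25.8 and 25.5 TPM in SA cells, against 10.5, 9.70 and 12.8 TPM in Control cells. SA stood far above the other groups, which ran into each other except that every DFO library lay above every DTPA library. The log2 fold change with SA was 1.18 ± 0.10 (limma, adjusted p = 9.41e-06), the largest of the 8 genes in that comparison, or 2.37-fold in means. With DFO it was 0.24 ± 0.10 (adjusted p = 0.155) and missed the threshold, which it passed without Control replicate 3 (adjusted p = 0.0446). With DTPA it was −0.25 ± 0.10 (adjusted p = 0.0400), a call that 14 of 23 alternatives lost, median-of-ratios scaling among them (−0.13, adjusted p = 0.279). Without Control replicate 3 the fall with DTPA was −0.15 (adjusted p = 0.170), and it also missed the threshold without Control replicate 1, DTPA replicate 2 or 3, DFO replicate 1 or any 1 SA library (adjusted p up to 0.131 without those).

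Nupr1 (chr7:126623249-126630861, minus strand) encodes a small stress-induced nuclear protein. It measured 6.20, 8.60 and 8.61 TPM in DTPA cells, 24.6, 21.7 and 25.2 TPM in DFO cells and 24.6, 25.9 and 25.3 TPM in SA cells, against 18.6, 16.6 and 17.8 TPM in Control cells. DTPA lay far below Control, and DFO and SA lay above it and overlapped each other. With DTPA the log2 fold change was −1.10 ± 0.10 (limma, adjusted p = 1.54e-06), the largest of the 8 genes in that comparison, or 2.26-fold lower in means. It was 0.41 ± 0.10 with DFO (adjusted p = 0.0259) and 0.49 ± 0.10 with SA (adjusted p = 0.00506). The rise with DFO missed the threshold without Control replicate 2 or 3 or without DFO replicate 1 or 3 (adjusted p between 0.0660 and 0.0880).

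Asns (chr6:7675169-7693254, minus strand) encodes asparagine synthetase, the enzyme that makes asparagine from aspartate and glutamine. Its levels were 204, 206 and 203 TPM in DTPA cells, 441, 460.2 and 449 TPM in DFO cells and 492, 489.6 and 502 TPM in SA cells, against 424, 418 and 427 TPM in Control cells. DTPA cells held less than each of the other groups by a wide margin, and Control, DFO and SA followed in that order without overlap. The log2 fold change with DTPA was −1.05 ± 0.02 (limma, adjusted p = 1.23e-12), or 2.07-fold lower in means. It was 0.09 ± 0.02 with DFO (adjusted p = 0.0121) and 0.23 ± 0.02 with SA (adjusted p = 1.05e-05), in each case the smallest change of the 8 genes. With median-of-ratios scaling the rise with DFO did not pass the test (0.03 ± 0.02, adjusted p = 0.362).

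Sesn2 (chr4:132492032-132510501, minus strand) encodes sestrin 2, a leucine sensor that restrains the growth kinase complex mTORC1. It measured 104, 101 and 99.1 TPM in DTPA cells, 130.0, 132 and 133 TPM in DFO cells and 173, 174 and 169 TPM in SA cells, against 115, 111 and 116 TPM in Control cells. The 4 groups did not overlap, in the order DTPA, Control, DFO, SA from low to high. For Sesn2 the log2 fold change was −0.17 ± 0.02 with DTPA (limma, adjusted p = 5.36e-05), 0.20 ± 0.02 with DFO (adjusted p = 0.000473) and 0.59 ± 0.02 with SA (adjusted p = 6.06e-08). The fall with DTPA was close to the −0.11 median of all genes and did not hold under median-of-ratios scaling (−0.04 ± 0.03, adjusted p = 0.229).

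The order of group means in TPM was DTPA, Control, DFO, SA from low to high for 6 genes, Atf5, Trib3, Sesn2, Asns, Cebpg and Nupr1. The share of all genes with this order was not counted. For Ddit3 it was Control, DTPA, DFO, SA, and for Cebpb Control, DFO, DTPA, SA. Neighbours in these orders that did not pass the test were DFO and Control for Trib3, DFO and SA for Nupr1, and for Cebpb both DFO and Control and DTPA and DFO. With median-of-ratios scaling, DTPA and Control for Sesn2 and Trib3 and Control and DFO for Asns did not pass either. Nor did DTPA and DFO for Ddit3 or DTPA and SA for Cebpb. By the size of the log2 fold change, Asns and Nupr1 moved most under DTPA and the other 6 most under SA, a difference in size that was not tested within a gene.

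The treatments were also compared with each other. In DTPA against SA all 8 genes were lower, where 47.0% of all genes tested were called lower, 20.1% higher and 67.1% either way, with log2 fold changes between −1.85 for Atf5 (limma, adjusted p = 3.47e-13) and −0.43 for Cebpb (adjusted p = 0.0344). The Cebpb call was lost under 10 of 23 alternatives, with −0.25 (adjusted p = 0.149) without SA replicate 1, and missed the threshold too without DTPA replicate 1 (adjusted p = 0.0618) or 3 (adjusted p = 0.129), and with median-of-ratios scaling (adjusted p = 0.170). The median of the 8 was −1.17, and that of all genes −0.17. Every DTPA library lay below every SA library for all 8 genes (48.9% of all genes). In DTPA against DFO, 7 of 8 were lower, where 46.4% of all genes were called lower, 19.6% higher and 65.9% either way, with Nupr1 at −1.51 ± 0.10 (adjusted p = 9.41e-08), Atf5 at −1.27 ± 0.03 (adjusted p = 7.46e-12) and Asns at −1.14 ± 0.02 (adjusted p = 8.87e-13). Cebpb was at 0.07 ± 0.16 (adjusted p = 0.722), and Ddit3, at −0.22 ± 0.02, moved to −0.03 (adjusted p = 0.360) with median-of-ratios scaling. Every DTPA library lay below every DFO library for 7 of the 8 (48.6% of all genes). Median-of-ratios scaling shifted the median of all genes by 0.16 in that comparison and by 0.17 in DTPA against SA.

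In DFO against SA, 6 of 8 genes were lower and 0 higher, where 6.30% of all genes were called lower, 7.22% higher and 13.5% either way. The median of the 8 was −0.48, and that of all genes 0.00. Trib3 differed most, at −0.95 ± 0.10 (limma, adjusted p = 9.03e-05), which is 1.99-fold lower in DFO cells by means. Atf5 was at −0.58 ± 0.03 (adjusted p = 1.10e-06), Cebpg at −0.52 ± 0.05 (adjusted p = 6.45e-05), Ddit3 at −0.45 ± 0.02 (adjusted p = 6.00e-07) and Sesn2 at −0.38 ± 0.02 (adjusted p = 3.97e-06). Asns differed by −0.13 ± 0.02 (adjusted p = 0.000833). For Nupr1 no difference was called (−0.08 ± 0.10, adjusted p = 0.660, 95% interval −0.31 to 0.14), nor for Cebpb (−0.51 ± 0.16, adjusted p = 0.0656, 95% interval −0.86 to −0.15), although all 3 DFO libraries lay below all 3 SA libraries for Cebpb, as they did for 7 of the 8 genes (15.3% of all genes).

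Atf4, whose protein acts on these genes, measured 103, 101 and 98.7 TPM in DTPA cells, 121, 120.4 and 124 TPM in DFO cells and 145, 151 and 152 TPM in SA cells, against 105, 99.0 and 96.1 TPM in Control cells. DTPA and Control overlapped, DFO lay above both and SA above all. The log2 fold change was 0.01 ± 0.03 with DTPA (limma, adjusted p = 0.732), 0.28 ± 0.03 with DFO (adjusted p = 0.000393) and 0.58 ± 0.03 with SA (adjusted p = 6.79e-07). With DTPA the 95% interval for Atf4 was −0.06 to 0.09, and median-of-ratios scaling gave 0.15 ± 0.03, then called higher (limma, adjusted p = 0.00179). Under neither scaling was Atf4 RNA called lower with DTPA, where Asns, Nupr1 and Atf5 were. RNA levels do not show how much ATF4 protein was made, and its part in those falls was not tested. Among the 8 genes upstream of the response, namely the 4 eIF2α kinases Eif2ak1, Eif2ak2, Eif2ak3 and Eif2ak4, the eIF2α gene Eif2s1, Atf4 and the phosphatase subunits Ppp1r15a and Ppp1r15b, 0 were higher and 7 lower with DTPA, 1 higher (Atf4) and 0 lower with DFO, and 1 higher (Atf4) and 1 lower with SA. Of all genes tested, 23.5% were higher and 42.1% lower with DTPA, 8.39% and 2.28% with DFO, and 15.4% and 6.75% with SA, so that the DFO and SA counts of these 8 genes lie near the background. The 1 lower with SA was Eif2ak1, at 454, 467 and 454 TPM in SA cells, against 487, 475 and 485 TPM in Control cells (log2 fold change −0.07 ± 0.02, adjusted p = 0.00877). With median-of-ratios scaling the counts were 1 higher and 4 lower with DTPA, 1 and 1 with DFO, and 1 and 3 with SA. Of all 11917 genes tested, that scaling called 3842 higher and 3858 lower with DTPA. It called 423 and 646 with DFO, and 1124 and 1624 with SA.

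A list of 45 other genes known as ATF4 targets, of amino acid transport and synthesis, one-carbon metabolism, aminoacyl-tRNA synthetases and other stress genes such as Vegfa and Herpud1, was set beside the 10. Of these, 44 were found by symbol and 31 were tested. With SA 22 of the 31 rose and 3 fell, and the median of the 31 log2 fold changes was 0.31, beside 15.4% higher, 6.75% lower and a median of 0.05 over all genes tested. With DFO 14 rose and 2 fell (median 0.09), beside 8.39%, 2.28% and 0.05 over all genes. With DTPA 4 rose and 24 fell (median −0.39), beside 23.5%, 42.1% and −0.11 over all genes. Median-of-ratios scaling gave 20 and 4 with SA, 6 and 4 with DFO, and 5 and 21 with DTPA. Of all 11917 genes tested, that scaling called 1124 higher and 1624 lower with SA. It called 423 and 646 with DFO, and 3842 and 3858 with DTPA. With SA the transporter genes Slc7a5 (1033 TPM in SA cells, 731 TPM in Control cells; log2 fold change 0.50, limma adjusted p = 1.37e-06) and Slc38a2 (52.2 TPM in SA cells, 36.5 TPM in Control cells; 0.51, adjusted p = 1.88e-05) rose, as did the seryl-tRNA synthetase gene Sars (215 TPM in SA cells, 153 TPM in Control cells; 0.49, adjusted p = 6.79e-07). Vegfa, a growth factor gene also induced by hypoxia, fell in all 3 treatments, to 0.217 TPM with DTPA, 4.93 TPM with DFO and 4.18 TPM with SA, against 8.02 TPM in Control cells (adjusted p = 3.08e-09, 0.0154 and 0.00132). With DTPA the one-carbon enzyme genes Shmt2 (45.8 TPM in DTPA cells, 155 TPM in Control cells; −1.73, adjusted p = 5.36e-13) and Mthfd1l (1.19 TPM in DTPA cells, 9.14 TPM in Control cells; −2.20, adjusted p = 1.18e-09) and the alanyl-tRNA synthetase gene Aars (115 TPM in DTPA cells, 273 TPM in Control cells; −1.24, adjusted p = 1.57e-12) fell. With DFO the proline synthesis gene Aldh18a1 (95.2 TPM in DFO cells, 76.4 TPM in Control cells; 0.31, adjusted p = 0.000482) and the endoplasmic reticulum stress gene Herpud1 (63.4 TPM in DFO cells, 54.7 TPM in Control cells; 0.21, adjusted p = 0.0182) rose, the second of them not under median-of-ratios scaling (0.15, adjusted p = 0.0674).

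**Figure D3:**
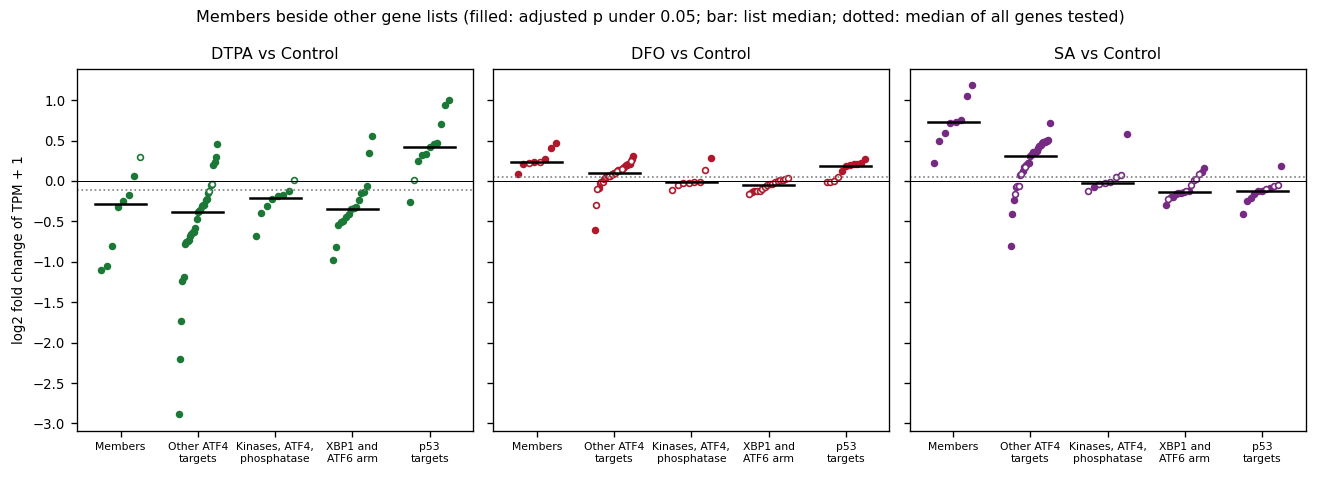
Log2 fold change of TPM + 1 against Control for the measured members of 5 gene lists, in DTPA, DFO and SA cells; each point is a gene (filled where its adjusted p is under 0.05), the bar is the list median and the dotted line the median of all genes tested. Under SA the 8 ATF4-induced genes have a median of 0.73 and the 31 other ATF4 targets one of 0.31, while the XBP1 and ATF6 list and the p53 list have medians of −0.14 and −0.12.

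The other arms of the endoplasmic reticulum stress response and neighbouring stress programmes gave other counts, to be read against the 23.5% of all genes higher and 42.1% lower with DTPA, 8.39% and 2.28% with DFO, and 15.4% and 6.75% with SA. Of 16 genes of the XBP1 and ATF6 arm, which covers chaperones and degradation factors of the endoplasmic reticulum, 2 rose and 8 fell with SA, 0 rose and 2 fell with DFO, and 2 rose and 14 fell with DTPA. Its factor gene Xbp1 stood at 75.9 TPM in DTPA cells (log2 fold change −0.98, limma adjusted p = 5.54e-11), 137 TPM in DFO cells (−0.13, adjusted p = 0.0120) and 135 TPM in SA cells (−0.15, adjusted p = 0.00267), against 150.4 TPM in Control cells. Of 11 tested targets of the DNA damage factor p53, 9 rose and 1 fell with DTPA, 7 rose and 0 fell with DFO, and 1 rose and 7 fell with SA. Median-of-ratios scaling left 4 of the p53 targets higher with DFO, and gave 0 higher and 5 lower with DFO in the XBP1 and ATF6 list. Of all 11917 genes tested, that scaling called 423 higher and 646 lower with DFO. The p53 target Cdkn1a, a cell cycle inhibitor gene, stood at 247 TPM in DTPA cells (0.33, adjusted p = 1.98e-06), 195 TPM in DFO cells (−0.01, adjusted p = 0.893) and 147 TPM in SA cells (−0.41, adjusted p = 5.87e-06), against 196 TPM in Control cells. Of 6 tested genes known as CHOP targets, Trib3 among them, 2 rose and 0 fell with SA, 1 rose and 0 fell with DFO, and 2 rose and 3 fell with DTPA. The 2 that rose with SA were Trib3 and Bbc3, and the 1 that rose with DFO was Bbc3. Bbc3 is on the p53 list too and is counted in both lists. The DTPA counts of the CHOP targets lie near the background, and 1 of the 3 that fell was Trib3, whose call 14 of 23 alternatives lost. Median-of-ratios scaling gave 2 higher and 2 lower with DTPA, beside 3842 higher and 3858 lower of all 11917 genes tested.

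Of 15 paralogs of the 10 genes, 14 were found and 4 tested, Atf4, Chac2, Sesn1 and Nupr1l. Sesn1, a sestrin known as a p53 target, fell with DTPA (73.0 TPM in DTPA cells, 87.7 TPM in Control cells; log2 fold change −0.26, limma adjusted p = 1.29e-06) and with SA (80.6 TPM in SA cells, 87.7 TPM in Control cells; −0.12, adjusted p = 0.00392). Sesn2 thus rose with SA where Sesn1 fell. Chac2, a paralog of Chac1, was measured where Chac1 was listed at 0, and fell with DTPA (7.81 TPM in DTPA cells, 13.8 TPM in Control cells; −0.75, adjusted p = 2.90e-05).

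For each of the 8 genes the nearest profile was found among 9569 other genes, by the root mean square difference of centred log2(TPM + 1) values over the 12 libraries. The nearest to Ddit3 was Atf4, at 0.0721, and the nearest of the other 7 was Sesn2, at 0.0904 and in rank 2. The nearest to Sesn2 was Fance at 0.0561, to Asns Sae1 at 0.0370, to Cebpg Serpinb6a at 0.111, to Atf5 Hoxc5 at 0.113 and to Nupr1 Dnph1 at 0.116. For Trib3 the nearest was Soat2 at 0.210 and for Cebpb AA388235 at 0.180, the largest of these 8 distances. For Asns the nearest of the other 7 was Nupr1, in rank 649 at 0.199. These distances describe 12 libraries that share 4 groups, and genes that respond to the same treatments come out near each other whatever their role.

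**Figure D4:**
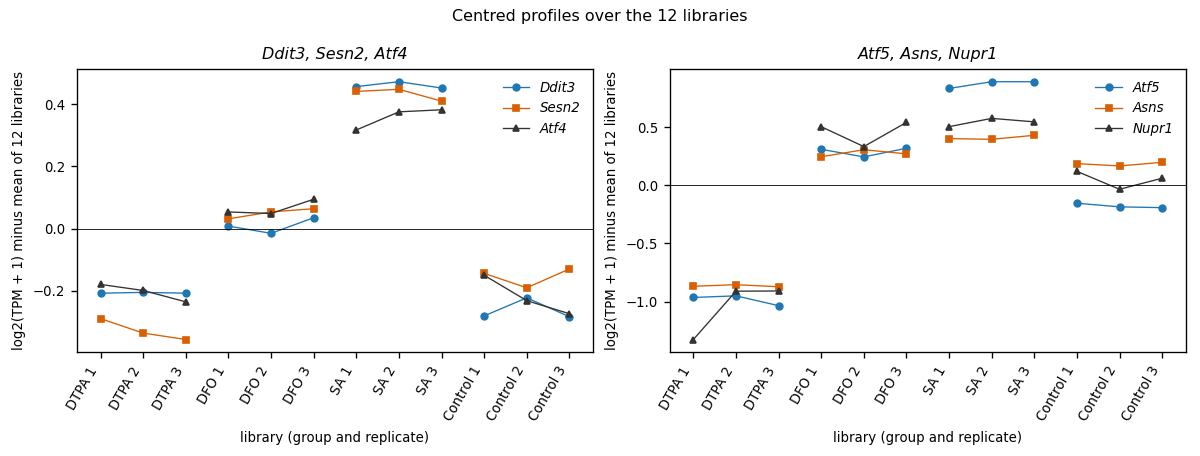
Centred log2(TPM + 1) of 6 genes over the 12 libraries, in DTPA, DFO, SA and Control cells; lines join libraries of a group. Ddit3, Sesn2 and Atf4 (left) are highest in SA cells. DTPA and Control lie near each other for Ddit3 and Atf4, while DTPA lies below Control for Sesn2. Atf5, Asns and Nupr1 (right) are far lowest in DTPA cells.

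Erythroid markers were at high levels, as the label of the line says. All 8 of them were tested, with summed levels of 15717 to 16530 TPM in DTPA cells, 16568 to 16747 TPM in DFO cells and 14924 to 15482 TPM in SA cells, against 18796 to 19751 TPM in Control cells. Of the 8, 1 was called higher and 6 lower with DTPA, 1 and 4 with DFO, and 0 and 5 with SA. Of all genes tested, 23.5% were higher and 42.1% lower with DTPA, 8.39% and 2.28% with DFO, and 15.4% and 6.75% with SA. Median-of-ratios scaling gave 2 higher and 4 lower with DTPA, beside 3842 higher and 3858 lower of all 11917 genes tested. The sums mix genes that moved in opposite directions, with Alas2 at 3002 TPM in DTPA cells and 2268 TPM in Control cells. The 6 megakaryocyte markers summed to 36.5 to 45.8 TPM in DTPA cells, 10.3 to 10.9 TPM in DFO cells and 8.27 to 9.87 TPM in SA cells, against 8.23 to 9.34 TPM in Control cells, with Ppbp at 0. Of the 4 that were tested 3 rose and 0 fell with DTPA, beside 23.5% higher and 42.1% lower over all genes tested. The part of the erythroid and megakaryocyte markers in the lower levels of Asns, Nupr1 and Atf5 was not tested. The 8 mast and myeloid markers summed to at most 0.757 TPM in any library (Mcpt8, Mpo, Lyz2 and Itgam at 0). Cd79a, a lymphoid marker, measured 1.45, 2.04 and 1.37 TPM in DTPA cells, 0.506, 0.329 and 0.744 TPM in DFO cells and 0.900, 0.577 and 0.525 TPM in SA cells, against 0.757, 0.361 and 0.589 TPM in Control cells. It was higher with DTPA than in Control cells (log2 fold change 0.74 ± 0.18, adjusted p = 0.00353), and its part in the lower levels of Asns, Nupr1 and Atf5 was not tested.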

How the data were processed

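The authors deposited 1 table of TPM values for each of the 12 libraries (55487 rows with gene symbols). RNA came from a column kit and libraries from a stranded mRNA kit, per the labels' protocols. Trimmomatic 0.33, FastQC, HISAT2 2.1.0, featureCounts and edgeR were used with the build mm10, per the submitters' processing notes. How these tools were set, for strand too, and which annotation release they used is not given in the sources used here.

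For the 114 repeated symbols (234 rows), the row with the highest mean was kept. Reads were recovered from TPM and GENCODE M21 exon lengths; of the values that came to at most 200 reads, 98.8% or more in each library were whole to 0.1 read. The 11917 genes that reached 1 TPM in 3 or more libraries were fitted as log2(TPM + 1) with limma 3.58.1 (R 4.3.3). The fit used all 12 libraries, a mean for each group and a mean-variance trend. Tests were two-sided with Benjamini-Hochberg adjustment over the 11917 genes and a threshold of 0.05. The fit was tested on simulated data in which few genes changed, as many up as down, and no scaling was shifted. Such data do not resemble the many changes with DTPA and leave the question of scaling untested. Promoters are RefSeq's (GRCm38.p6). Other steps used Python 3.11.15, numpy 2.4.6, pandas 2.3.3 and matplotlib 3.10.9. The 10 genes, the other lists and the tests were chosen with earlier results of these data known. Named were the 10 genes, the upstream genes and up to 4 called genes of largest change per other list, some of which are left out for length; values of Cdkn1a with DTPA and DFO and of Xbp1 with SA were added after they were seen. A further marker list is not reported here in full.

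The 23 alternatives changed the pseudocount (0.1, 5), the filter (none, 5 TPM), the scaling (median of ratios; trimmed mean, cutting 30% of ratios and 5% of means), the genes (no globins), the variance step (robust), the libraries (only the 6 compared; each of the 12 omitted once) and the model (replicate number as a block; voom on recovered reads, at least 10 in 3 libraries).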

Additional observations from a re-analysis of the deposited data

How the results depend on the processing

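The 8 measured genes gave 48 results over 6 comparisons, each recomputed under 23 alternatives. Of the 1104 values, 1058 kept their direction and their side of the threshold, 44 lost a call, 1 gained one and 1 changed sign, and 38 results changed under no alternative. The sign changed for Cebpb in DTPA against DFO, called under no alternative: with single libraries left out its log2 fold change lay between −0.018 (without DTPA replicate 2, adjusted p = 0.942) and 0.18. The calls of members per comparison stayed within 1.5 times their count: 5 to 7 for DTPA against Control, 4 to 6 for DFO against Control and 8 throughout for SA against Control. In the main fit 65.5%, 10.7% and 22.2% of all genes tested were called either way in these 3 comparisons. Taken either way, the DTPA counts thus lie near the background. By direction, 6 of 8 genes were lower and 1 higher with DTPA in that fit, where 42.1% of all genes were lower and 23.5% higher. The calls most often lost were those of Trib3 and Ddit3 in DTPA against Control, Nupr1 in DFO against Control and Cebpb in DTPA against SA. Scaling took the call from Sesn2 and Trib3 in DTPA against Control, Asns in DFO against Control, Ddit3 in DTPA against DFO and Cebpb in DTPA against SA; the cause was not tested. Over all genes, DFO against Control gave 1272 calls, but 613 higher and 189 lower with only the 6 libraries compared, and 641 higher and 203 lower without DFO replicate 1, 665 and 182 without replicate 2, 666 and 174 without replicate 3, and 781 and 179, 634 and 246, and 678 and 174 without Control replicates 1, 2 and 3. Replicate numbers are shared between groups but did not pair libraries (18 same-number pairs, correlations of −0.04 to 0.05). With the number as a block, 7, 6 and 8 members were called in DTPA, DFO and SA against Control. Of all 11917 genes, that model called 2775 higher and 4971 lower with DTPA, 817 and 241 with DFO, and 1687 and 745 with SA. It lost 1 member call, Cebpb in DTPA against SA (limma, adjusted p = 0.0508). Depth limits Chac1 and Atf3, of which no change could be seen, and Cebpb, of 28 to 81 reads.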
